A study of Mus musculus with 5 samples.

Results

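The regions described here are distal stretches of open chromatin that were listed as peaks in the wild-type and 5xFAD libraries of mouse hippocampus and in none of 3 libraries labelled as knockouts of MAGL. They were found by merging the peak lists of 5 single-nucleus libraries wherever peaks overlapped by 1 bp or more. A merged region was taken when it held a peak of WT and a peak of TG, held no peak of TG-aKO, TG-nKO or TG-tKO, and lay more than 1 kb from every gene position in the deposited feature list. The rule found 2378 regions among 220645 merged regions and 178385 distal ones. They are 2.01% of the 118309 distal regions listed in both WT and TG, of which 100608 were listed in all 5 libraries. The peak lists of these same libraries chose the regions, so their presence in WT and TG and absence from the other lists is the rule and not a finding.

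Each library is a multiome preparation, in which RNA and transposase-accessible DNA are read from the same nuclei. WT is wild type. TG is 5xFAD, a transgenic model of amyloid deposition in which the Thy1 promoter drives the transgenes in neurons. TG-aKO, TG-nKO and TG-tKO are 5xFAD with MAGL knocked out in astrocytes, in neurons or globally, and all 3 therefore carry the 5xFAD transgenes. There is no knockout without 5xFAD, all 5 libraries carry the batch name v3, and the labels give no age, strain, Cre driver or number of animals. With a single library in each group, groups were not tested against each other, and intervals are 95% intervals that cover counting error only.

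Distal accessible regions are places where regulatory proteins keep DNA free of nucleosomes, away from gene starts. Many act as enhancers, and many are open in a single cell type, so that a region used by a rare cell type gives few reads in whole tissue. MAGL, encoded by Mgll, is the lipase that splits the endocannabinoid arachidonoylglycerol into arachidonic acid and glycerol, and astrocytes and neurons both express it. A peak caller lists a region where reads exceed a local background, and cut sites were counted only inside each library's own listed peaks. For the 2378 regions there is therefore a level in WT and in TG, and none was analysed here for the KO-labelled libraries. Absence from a list is not a measured level of 0.

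The 5 libraries held 4050 to 7498 nuclei, 83726719 to 105867030 cut sites in listed peaks and 157482 to 180784 peaks, with the fewest peaks in TG-aKO. Median cut sites per nucleus ran from 10688 in TG-tKO to 14939 in TG-nKO. Between 29 and 63 cell barcodes were shared by any pair of libraries. Mgll RNA over all kept nuclei stood at 74.3 CPM (counts scaled to a library total of 1000000 UMIs) in WT, 77.7 in TG, 92.5 in TG-aKO, 92.6 in TG-nKO and 80.5 in TG-tKO. In astrocyte-like nuclei it stood at 492 CPM in WT, 346 in TG, 483 in TG-aKO, 401 in TG-nKO and 430 in TG-tKO, from 52 to 155 UMIs. Neither level was lower than TG in any KO-labelled library, TG-aKO included, but the labels do not say which part of Mgll was removed, and UMIs from outside that part check nothing. The KO names below are those of the labels.

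Sequences can be shown for the regions that hold a RefSeq gene start. Although the rule kept regions away from the listed gene positions, 20 of them overlapped a RefSeq promoter window, which spans 250 bases before a start and 50 after it, and 12 windows of 300 bases lay wholly inside a region. The 4 below are shown because they lie in the 2 regions with most cut sites among those led by astrocyte-like nuclei and the 2 among those led by oligodendrocyte-like nuclei, as defined below. Windows in other glia-led regions, not shown, are those of Gm38483, Rusf1, Gm32631, Gm34845 and Gm39821. The Gm32631 region drew 95 of its 161 cut sites in WT and 63 of 112 in TG from oligodendrocyte-like nuclei. They are given 5′ to 3′ on the strand of the RefSeq gene, from RefSeq on GRCm38.p6, and capitals mark matches to the motifs searched, other than CG.
Gm35187, chr3:145890630-145890929, minus strand: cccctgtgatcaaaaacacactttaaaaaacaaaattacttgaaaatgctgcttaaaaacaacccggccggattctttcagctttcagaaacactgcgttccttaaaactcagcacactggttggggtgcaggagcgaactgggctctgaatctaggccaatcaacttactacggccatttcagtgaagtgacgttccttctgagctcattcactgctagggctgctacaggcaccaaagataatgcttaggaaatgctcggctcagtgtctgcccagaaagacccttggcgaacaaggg
Gm52026, chr13:119741522-119741821, plus strand: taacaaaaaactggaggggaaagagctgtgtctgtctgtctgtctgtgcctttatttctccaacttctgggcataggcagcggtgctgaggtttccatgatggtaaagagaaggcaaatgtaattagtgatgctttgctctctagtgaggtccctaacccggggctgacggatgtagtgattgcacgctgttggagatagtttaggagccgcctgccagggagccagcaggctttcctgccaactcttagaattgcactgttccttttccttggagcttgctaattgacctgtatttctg
Ly6g6d, chr17:35081190-35081489, minus strand: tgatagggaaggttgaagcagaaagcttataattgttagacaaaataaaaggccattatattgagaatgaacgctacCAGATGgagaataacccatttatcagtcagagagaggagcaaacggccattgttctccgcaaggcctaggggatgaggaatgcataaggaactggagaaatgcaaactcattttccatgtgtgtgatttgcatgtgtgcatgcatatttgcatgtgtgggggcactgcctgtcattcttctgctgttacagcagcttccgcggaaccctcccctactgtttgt
Gm40744, chr10:94961387-94961686, plus strand: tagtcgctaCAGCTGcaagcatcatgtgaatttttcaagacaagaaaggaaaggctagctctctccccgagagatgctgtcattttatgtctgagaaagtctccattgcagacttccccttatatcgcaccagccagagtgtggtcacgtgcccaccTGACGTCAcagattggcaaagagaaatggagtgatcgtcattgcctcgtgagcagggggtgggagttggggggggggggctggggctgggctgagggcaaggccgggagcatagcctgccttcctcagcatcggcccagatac

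The Gm35187 window lies in an intron of Ddah1, within the region chr3:145890072-145891109. That region held 193 cut sites in WT and 162 in TG, of which 85 and 58 came from astrocyte-like nuclei, and its window carried no match to any motif searched other than CG dinucleotides. The Gm52026 window lies in an intron of Nim1k, in a region with 249 and 214 cut sites and an astrocyte-like level 7.99 times that of all nuclei in WT and 9.64 times in TG. The Ly6g6d window lies in an intron of Ly6g6f, and its region drew 129 of its cut sites in WT and 105 in TG from oligodendrocyte-like nuclei and 0 from astrocyte-like nuclei. The Gm40744 region drew fewer of its cut sites from oligodendrocyte-like nuclei, 20 of 190 in WT and 12 of 177 in TG, and was led by inhibitory neuron-like nuclei as well. Its window is intergenic, nearest to Plxnc1, and holds the E-box CAGCTG and the cyclic AMP response element TGACGTCA. The Ly6g6d window holds the E-box CAGATG.

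Motifs were searched on both strands, and a match is a string and not a bound site. Among all 32851 RefSeq windows of this length, CAGCTG occurred in 16.3%, CAGATG in 17.15%, TGACGTCA in 1.79%, the AP-1 string TGANTCA in 7.81%, ACAAAG (SOX) in 18.7%, GCGTGGGCG (EGR) in 0.612%, GAGGAAGT (PU.1) in 3.202% and AGGGGGC (CTCF) in 10.6%. The MEF2 string occurred in 3.69% of them, the RFX string in 0.298%, the NFI string in 0.0365% and the paired SOX string in 0.0274%. Of the 12 windows inside the regions, 4 held CAGCTG, 3 held ACAAAG, 2 held CAGATG, 2 held the MEF2 string and 1 held TGACGTCA. None of the 12 held the AP-1, EGR, PU.1, CTCF, RFX, NFI or paired SOX string. Their GC content had a median of 49.8% and ran from 31% to 73%, beside a median of 52.7% over RefSeq windows.

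The regions had low levels. Their level, in cut sites scaled to 1000000 in all listed peaks of the library (also CPM), had a median of 1.48 in WT and 1.499 in TG, beside 3.405 and 3.34 for distal regions listed in all 5 libraries. The median region rested on 146 cut sites in WT and 125.5 in TG. Quartiles were 1.20 and 1.93 CPM in WT, and the highest level was 9.04. Widths were alike, with a median of 914 bp against 939 bp. The centre lay in an intron for 49.3% of the regions and between genes for 45.3%, beside 47.2% and 47.4% of regions listed in all 5 libraries. The median gap to a gene position was 31.98 kb against 31.02 kb. In 2371 of the regions WT and TG contributed 1 peak each.

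The share of regions missing from every KO-labelled list was smaller at higher levels. Of distal regions listed in WT and TG, 419 of 3313 with a lower value under 1 CPM were missing (12.65%), and 990 of 14373 between 1 and 1.5 CPM (6.89%). From 2 to 3 CPM the share was 1.115%, and at 5 CPM and over it was 19 of 27125. Absence was graded across the KO lists as well: 5042 WT and TG regions were listed in 1 of the 3 libraries and 10281 in 2. At the rule's edges, the nearest peak of a KO-labelled library lay a median of 2.75 kb away, under 1 kb for 584 regions and under 100 bp for 76. The smallest gaps were 1 bp, beside a region nearest to Nab1 and beside another in an intron of Fbn1. Just outside the rule, regions near chr12:36050893-36052224 and chr1:92264034-92265425 were dropped for a KO peak that overlapped by 7 and 13 bp. At the gene edge, the region nearest to Erf (1.003 kb away) was kept, and the one nearest to Atxn7l2 (933 bp) was not.

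**Figure D1:**
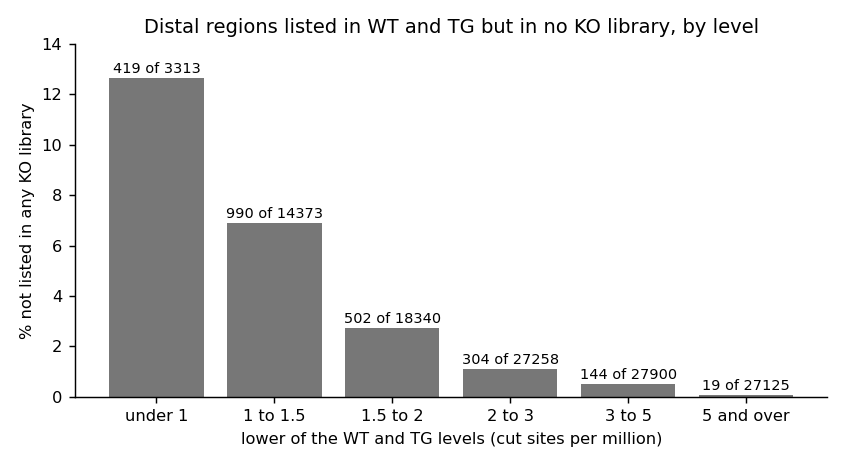
Bars give the percentage of distal regions listed in WT and TG that were listed in no KO-labelled library (vertical axis), in 6 bins of the lower of the WT and TG levels in cut-site CPM (horizontal axis); counts stand over the bars. The share falls from 12.65% under 1 CPM to 19 of 27125 regions at 5 CPM and over.

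The highest level was that of an intron of Bbs1, a subunit of the BBSome that sorts membrane proteins to cilia, at chr19:4892771-4893650. It held 892 cut sites in WT and 787 in TG, or 9.04 CPM (8.46 to 9.65) and 9.40 (8.75 to 10.1), and the nearest KO peak was 2661 bp away, in TG-nKO. Its 2 levels overlap within counting error. Next were a non-coding exon of Ap2a1, which encodes a clathrin adaptor subunit, at 7.34 and 7.56 CPM, an intron of Wbp11 near the histone gene H2afj at 7.81 and 6.86, and an intron of the taurine transporter gene Slc6a6 at 7.30 and 6.81. Introns of Atp9a (7.08 and 6.33) and Zmynd8 (6.41 and 6.43) and a region beside Malat1 (6.25 and 7.06), a nuclear non-coding RNA, followed. The last of the 10 lay in introns of Rxrb, which encodes a retinoid X receptor (5.73 and 5.89), Nell2 (5.87 and 5.70) and 2010300C02Rik (5.69 and 6.13). Of these 10, 6 had a KO peak within 1 kb. For 3 of those 6 a much larger region listed in all 5 libraries stood beside them. It lay 278 bp from the Wbp11 region (23.5 to 26.2 CPM over the libraries), 493 bp from the 2010300C02Rik region (25.4 to 28.0) and 715 bp from the Zmynd8 region (26.6 to 29.95).

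TG and WT did not stand apart over the regions. The log2 ratio of TG to WT had a median of 0.01 with quartiles of -0.14 and 0.16, on a scale with 0.2 CPM added. TG was over 1.5-fold higher in 36 of 2378 regions and over 1.5-fold lower in 22. Over all distal regions listed in WT and TG those shares were 0.893% and 0.767%. Because both lists entered the rule, these counts are a description.

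The cut sites were then divided by class of nucleus. The rule had not used the classes, but it had used peaks listed from these same cut sites. The class values are thus not independent of the rule and are a description. Nuclei were grouped by their RNA and named from marker genes, and the level of a class was its CPM, taken over that class's own cut sites. Astrocyte-like nuclei had the highest relative level of the classes, although they gave under 2% of the cut sites. Summed over the 2378 regions, they gave 6866 of 364870 cut sites in WT and 4749 of 316483 in TG. That is 1.88% (1.84 to 1.93) and 1.501% (1.46 to 1.54) of the cut sites in the regions, beside 0.975% and 0.722% of the cut sites in all listed peaks. The astrocyte-like level was 1.93 times that of all nuclei in WT (1.885 to 1.98) and 2.08 times in TG (2.02 to 2.14). Over distal regions listed in all 5 libraries the same ratio was 0.639 in WT, 0.653 in TG, 0.656 in TG-aKO, 0.646 in TG-nKO and 0.655 in TG-tKO. The ratio was somewhat higher in TG, beyond counting error, while regions shared by all libraries held less than average in each. When nuclei were classed by their highest marker score instead of by cluster, the astrocyte-like share was 3.75% in WT and 4.204% in TG, and the ratio came to 1.34 and 1.32.

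Other classes stood at smaller ratios. Choroid plexus and ependymal-like nuclei, a small class of 13 nuclei in WT and 11 in TG, stood at 1.22 and 1.195 against 0.873 and 0.801 for regions listed in all 5, and vascular and fibroblast-like nuclei, 12 in WT and 10 in TG, at 1.01 and 1.30 against 0.562 and 0.623. Oligodendrocyte-like nuclei, the myelinating cells, stood at 1.155 in WT and 1.13 in TG against 0.589 for regions listed in all 5 in WT. Oligodendrocyte precursor-like (OPC-like) nuclei stood at 1.06 and 1.02 against 0.655, and microglia-like nuclei, the immune cells of the brain, at 0.774 and 0.788 against 0.515 and 0.507. Each of these classes was thus higher in the regions than in those listed in all 5, as the astrocyte-like nuclei were by a larger margin. Inhibitory neuron-like nuclei stood at 1.07 and 1.06 against 0.950 and 0.935. Dentate granule-like nuclei, the input neurons of the hippocampus, were below average at 0.814 and 0.835 against 1.00 and 1.02, a contrast that is not matched for level. The reverse set, 2501 distal regions listed in all 3 KO-labelled libraries and in neither WT nor TG, had astrocyte-like ratios of 0.475 in TG-aKO, 0.3475 in TG-nKO and 0.332 in TG-tKO. Low ratios there were not limited to astrocyte-like nuclei. Oligodendrocyte-like nuclei stood at 0.423, 0.363 and 0.3965, OPC-like ones at 0.513, 0.484 and 0.521, and microglia-like ones at 0.505, 0.425 and 0.482.

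**Figure D2:**
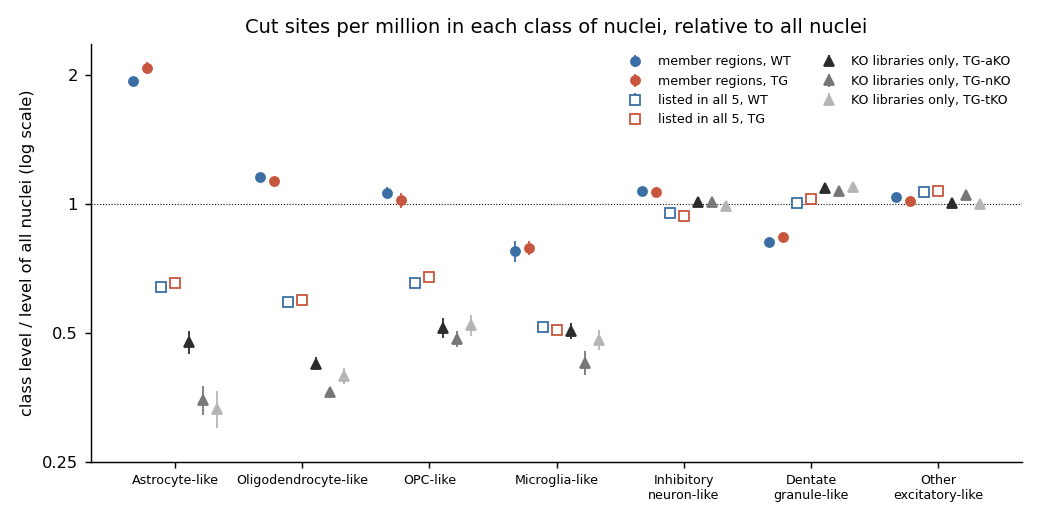
For 7 classes of nuclei (horizontal axis), points give the class's cut-site CPM divided by those of all nuclei (vertical axis, log scale), with 95% Poisson intervals of counting error; circles are the 2378 regions in WT and TG, open squares regions listed in all 5 libraries, and triangles the 2501 regions listed only in the KO-labelled libraries. Astrocyte-like nuclei stand at 1.93 and 2.08 in the circles, 0.639 and 0.653 in the squares and 0.332 to 0.475 in the triangles. Oligodendrocyte-like nuclei stand at 0.363 to 0.423 in the triangles.

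Astrocyte-like nuclei were few, and their count across libraries depended on how they were defined. There were 71 in WT and 46 in TG, against 47 in TG-aKO, 29 in TG-nKO and 32 in TG-tKO, or 1.42%, 0.927%, 0.803%, 0.740% and 0.455% of kept nuclei. They gave 0.975% of all cut sites in peaks in WT, 0.722% in TG, 0.545% in TG-aKO, 0.509% in TG-nKO and 0.281% in TG-tKO. Both WT and TG lie above the 3 KO-labelled libraries on these last 2 measures, while in number TG (46) lies beside TG-aKO (47). All 8 fixed astrocyte markers (Aqp4, Slc1a2, Slc1a3, Gja1, Gfap, Aldoc, Slc7a10 and Fgfr3) were raised in this cluster, whose median UMI count was 0.248 of the sample median. They were raised as well in 2 clusters that stayed unnamed, since markers of OPCs scored nearly as high there. The larger held 20, 18, 25, 19 and 95 nuclei in WT, TG, TG-aKO, TG-nKO and TG-tKO. Its median UMI count was 1.17 of the sample median and that of the smaller 0.6995, well above the named cluster. Whether these are astrocytes alone was not tested. With both clusters counted as astrocyte-like, a choice made after seeing the data, the share of cut sites became 1.67%, 1.46%, 1.70%, 1.40% and 1.79%. On this share WT and TG then no longer stand above the others, and TG-tKO is the highest. As a share of kept nuclei the values were 1.85%, 1.35%, 1.28%, 1.28% and 1.83%, with WT the highest. With nuclei classed by their highest marker score the share of cut sites was 2.80%, 3.18%, 2.71%, 2.06% and 2.43%, with WT and TG above the others. As a share of kept nuclei it was then 3.47%, 3.225%, 3.19%, 2.53% and 2.94%, with TG close to TG-aKO. The ratio over the regions was 1.585 in WT and 1.61 in TG with the unnamed clusters added, against 0.773 and 0.7499 for regions listed in all 5. By marker score it was 1.34 and 1.32, against 0.887 and 0.898. The part of astrocyte numbers in the peak lists was not tested, and fewer nuclei of a type and a less open region in each of them cannot be told apart where a peak is not listed. With TG-tKO left out of the rule, the number of regions was 4740 and the astrocyte-like ratio was 1.37 in WT and 1.435 in TG. Without TG-nKO the number was 4308, with ratios of 2.11 and 2.18, and without TG-aKO it was 3128, with 1.85 and 2.00.

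The astrocyte-like excess was then read within bins of level. Between 1 and 1.5 CPM, the ratio was 2.28 in WT and 2.46 in TG for the regions and 0.704 in both libraries for the 13383 other distal regions listed in WT and TG. Between 1.5 and 2 CPM it was 2.55 and 2.82 against 0.769 and 0.793. It was 1.06 and 1.01 between 3 and 5 CPM, against 0.6925 and 0.720, and 0.624 and 0.431 in the 19 regions at 5 CPM and over, where the others stood at 0.629 and 0.639. The regions thus stood above the others in each bin under 5 CPM. Oligodendrocyte-like ratios were above those of the other regions in every bin, 5 CPM and over included, at 1.255 in WT and 1.25 in TG against 0.589 and 0.599. Between 3 and 5 CPM they were 1.09 and 1.05, about level with the astrocyte-like ratios. For dentate granule-like nuclei the lower ratio of the regions did not hold in every bin, and in WT it held only between 3 and 5 CPM. Between 1 and 1.5 CPM they stood at 0.740 in WT and 0.777 in TG against 0.720 and 0.742 for the others, and between 1.5 and 2 CPM at 0.824 and 0.869 against 0.789 and 0.8155. Between 3 and 5 CPM they were lower, at 0.873 and 0.897 against 0.9515 and 0.976. Under 1 CPM they stood at 0.686 in WT and 0.646 in TG against 0.662 and 0.678. From 2 to 3 CPM they stood at 0.897 and 0.899 against 0.871 and 0.901, and at 5 CPM and over at 1.14 and 1.13 against 1.09 and 1.11.

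**Figure D3:**
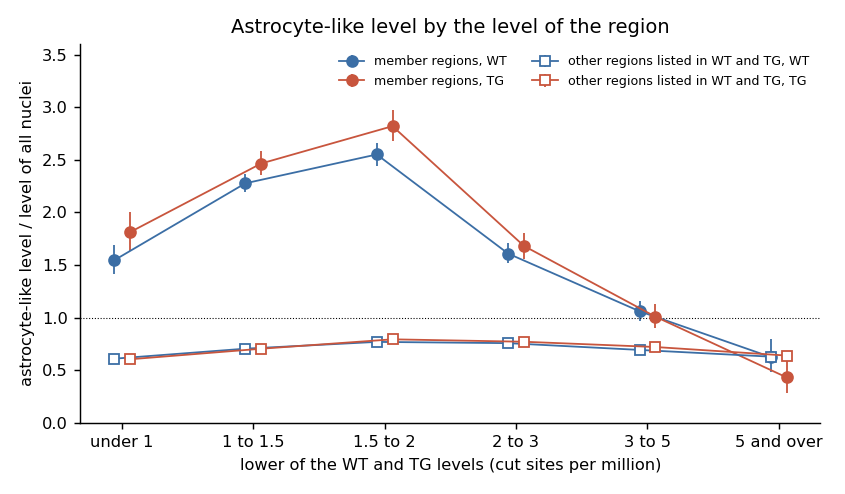
Points give the astrocyte-like level divided by the level of all nuclei (vertical axis) in 6 bins of the lower of the WT and TG levels (horizontal axis, cut-site CPM), for the 2378 regions (circles) and the other distal regions listed in WT and TG (squares), with 95% Poisson intervals. Between 1.5 and 2 CPM the circles reach 2.55 in WT and 2.82 in TG and the squares 0.769 and 0.793; at 5 CPM and over the circles are 0.624 and 0.431 and the squares 0.629 and 0.639.

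Single regions were assigned to a class when the class level was at least 2 times that of all nuclei in WT and in TG, with at least 10 class cut sites. Such astrocyte-leading regions numbered 205, or 8.62%, beside 4.81% of all distal regions listed in WT and TG. The share was 6.98% for WT and TG regions also listed in 1 KO-labelled library and 5.67% for those listed in 2. For oligodendrocyte-like nuclei the order differed, with 10.0% for 1 library and 7.47% for 2, and for OPC-like nuclei it was 6.49% and 5.20%. Oligodendrocyte-leading regions numbered 192 (8.07%, beside 5.05%), inhibitory neuron-leading ones 76 (3.196%, beside 1.5%) and OPC-leading ones 120 (5.05%, beside 4.34%). Microglia-leading regions numbered 73 (3.07%, beside 3.24%) and dentate granule-leading ones 68 (2.86%, beside 3.92%), both near or under the background. At 5 times all nuclei and 20 cut sites, 126 regions were astrocyte-leading, 5.30% beside 1.69%.

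The strongest astrocyte-leading regions drew much of their signal from few nuclei, 71 of 5015 kept nuclei in WT and 46 of 4962 in TG. An intron of Slc7a11, which encodes the cystine-glutamate exchanger, held 219 cut sites in WT and 199 in TG at chr3:50421472-50422482, of which 119 and 59 were astrocyte-like. Its astrocyte-like level was 135 CPM in WT and 106 in TG, 69.0 and 51.0 times that of all nuclei. An intergenic region 44.2 kb from Mgat5, a glycosyltransferase gene, at chr1:127159870-127160804, held 100 and 69 astrocyte-like cut sites, or 114 and 124 CPM. At chr1:154139286-154140270, nearest to A830008E24Rik, there were 85 and 61, at ratios of 78.5 and 75.4. The nearest peak of a KO-labelled library was 15917 bp from the first, 3481 bp from the second and 9612 bp from the last.

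Fgfr3, Dhrs3, Npas3 and Ddah1 lay beside or around others of these regions. A region 22.9 kb from Fgfr3, the fibroblast growth factor receptor used here as an astrocyte marker, held 78 and 45 astrocyte-like cut sites at chr5:33697902-33698802. A region 36.6 kb from Dhrs3, which encodes a retinaldehyde reductase, held 65 in WT and 81 in TG at chr4:144929701-144930532, so its astrocyte-like level was 74.0 CPM in WT and 145.5 in TG. An intron of Npas3, a transcription factor gene, held 78 and 43 at chr12:53749038-53749961. The Ddah1 intron whose sequence is shown above reached 96.7 and 104 CPM in astrocyte-like nuclei, 56.2 and 56.9 times all nuclei. Ddah1 encodes an enzyme that clears an inhibitor of nitric oxide synthase. Over the 20 regions with most astrocyte-like cut sites, the astrocyte-like level ran from 54.6 to 135 CPM in WT and from 57.5 to 145.5 in TG. Of the 8 fixed astrocyte markers, Aqp4 had 3 regions nearest to it or in it and Fgfr3 had 1, while the other 6 had none. Mag, an oligodendrocyte marker, and Vcan, an OPC marker, each had 1.

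**Figure D4:**
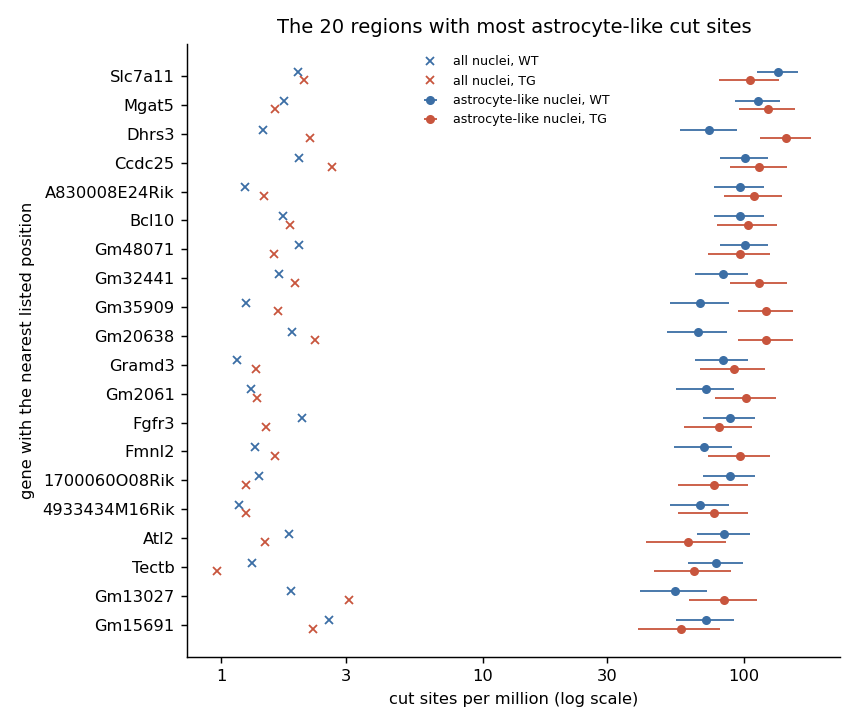
For the 20 regions with most astrocyte-like cut sites, named by the gene with the nearest listed position (vertical axis), dots give the level in astrocyte-like nuclei with 95% Poisson intervals and crosses the level in all kept nuclei (horizontal axis, cut-site CPM, log scale) in WT and TG. All dots lie between 54.6 and 145.5 CPM, far right of the crosses.

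Other classes had regions of their own. An intron of Tshr, the thyrotropin receptor gene, at chr12:91484164-91485107, drew 94 cut sites in WT and 73 in TG from oligodendrocyte-like nuclei, 32.3 and 27.2 times all nuclei. A region nearest to 4930426L09Rik drew 93 and 89. An intron of Hps3, a gene of lysosome-related organelle biogenesis, held 41 and 65 microglia-like cut sites, and an intron of Rassf2 held 15 and 70. The microglia-like nuclei numbered 44 in WT and 85 in TG and sat in different clusters: 42 and 31 in one and 2 and 54 in the other, so these counts do not compare like nuclei between the libraries. The OPC-leading pair lay near Platr26 (49 and 45 cut sites) and Kif12 (45 and 33). In an intron of Acoxl near Bcl2l11, a cell death gene, inhibitory neuron-like nuclei gave 72 and 102 cut sites at 4.77 and 4.71 times all nuclei.

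A region of this kind lay in Mgll itself. At chr6:88743533-88744545, in an Mgll intron, it held 275 cut sites in WT and 252 in TG, or 2.79 CPM (2.47 to 3.14) and 3.01 (2.65 to 3.405). Astrocyte-like nuclei gave 8 of them in WT and 22 in TG. The nearest peaks of the 3 KO-labelled libraries were 999, 986 and 1003 bp away. A neighbouring region listed in all 5 libraries stood at 13.2 CPM in WT, 14.1 in TG, 12.6 in TG-aKO, 11.5 in TG-nKO and 11.9 in TG-tKO. There the interval of WT (12.5 to 13.96) overlaps those of TG-aKO (11.9 to 13.35) and TG-tKO (11.25 to 12.6) but not that of TG-nKO (10.8 to 12.2). The TG interval (13.3 to 14.9) overlaps that of TG-aKO by a small margin and neither of the other two. Within 5 Mb of Mgll, 14 of 658 distal regions listed in WT and TG were of this kind (2.13%), near the 2.01% of the genome. They include the Slc6a6 intron above and an intron of Cyp26b1, which encodes an enzyme that degrades retinoic acid, at 3.203 and 2.46 CPM.

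The regions were spread over the genome, and the number of denser windows depended on the window size, with 4 at 5 Mb, 17 at 1 Mb and 0 at 10 Mb. Of 538 windows of 5 Mb, 500 held at least 1 region. A window was called dense with at least 5 regions and 3 times the genome share. These were chromosome 10 from 100 to 105 Mb (10 of 108 distal regions listed in WT and TG, 9.26%), chromosome 12 from 20 to 25 Mb (7 of 97, 7.22%), chromosome 6 from 130 to 135 Mb (6 of 85, 7.06%) and chromosome 1 from 65 to 70 Mb (9 of 146, 6.16%). The gene nearest to most regions was Dhx35, an RNA helicase gene, with 6 of them 124.9 to 421.4 kb away at 1.00 to 2.86 CPM in WT, followed by Plcl2 with 5.

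In the chromosome 12 window, 4 of the 7 regions lay over 100 kb from any KO peak. Over the genome 34 regions were over 50 kb from the nearest KO peak and 11 over 100 kb, and 4 of those 11 lay in this window. The first, in an intron of Gm49692 at chr12:20196193-20197083, held 429 cut sites in WT and 447 in TG (4.35 and 5.34 CPM), with no KO peak within 417.5 kb on either side. The second, at chr12:22030438-22031335, held 339 and 373 (3.44 and 4.455 CPM), and the gap was 245.5 kb. The others held 157 and 96 cut sites, nearest to Gm49698, and 193 and 110, nearest to 9030624G23Rik. The smallest of these 4 gaps was 149.3 kb. Not every region of the window was so remote: one in an intron of Taf1b, nearest to Grhl1, at chr12:24541234-24542175, held 278 and 219 cut sites and had a TG-tKO peak 502 bp away.

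RNA of the nearest gene was lower in the KO-labelled libraries at the first 2 of these. Gm49692 lay 4.737 kb from the centre of its region, but Gm4425 lay 125.8 kb from that of its own. Gm49692 had 378 UMIs in WT and 427 in TG, against 61 in TG-aKO, 59 in TG-nKO and 81 in TG-tKO. In CPM, it stood at 3.23 (2.91 to 3.57) and 3.82 (3.46 to 4.20) against 0.568, 0.615 and 0.577. Gm4425 had 191 and 211 UMIs against 12, 7 and 17, or 1.63 and 1.89 CPM against 0.112, 0.0730 and 0.121. For both genes WT and TG lie apart from all 3 KO-labelled libraries beyond counting error. In the other direction, 9030624G23Rik, 296.4 kb from its region, stood at 1.96 and 1.71 CPM in WT and TG. It stood at 3.29, 4.10 and 3.59 in the KO-labelled libraries. Gm49698, 13.1 kb from the remaining region, had 5 and 5 UMIs in WT and TG and 7, 14 and 13 in the KO-labelled libraries. These are clone-named models, and reads shared with near-identical copies were not examined, so their levels are uncertain. The labels give no history of the mouse lines, so with 1 library per group the knockout, the mouse line (its background and copy number there) and the library cannot be told apart.

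**Figure D5:**
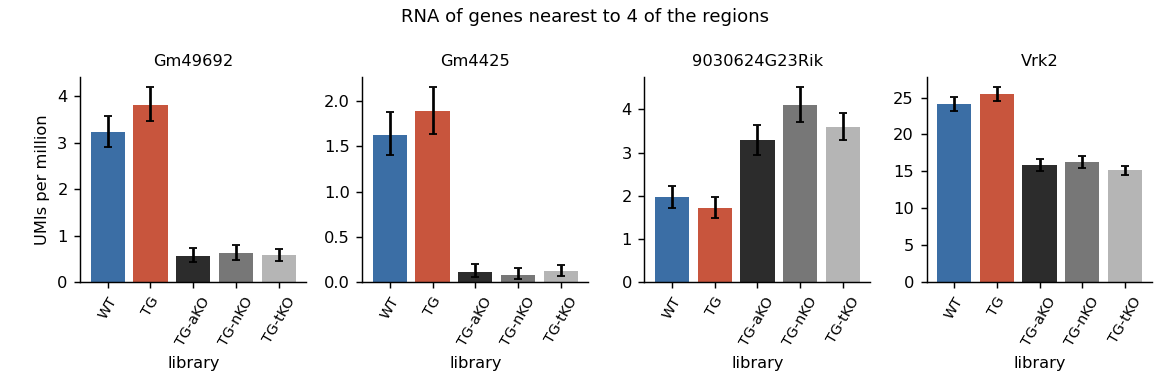
Bars give RNA of 4 genes nearest to regions of the set, in CPM over kept nuclei (vertical axis from 0), in the 5 libraries (horizontal axis), with 95% Poisson intervals. Gm49692 and Gm4425, 4.737 and 125.8 kb from regions of chromosome 12, and Vrk2 are lower in the 3 KO-labelled libraries than in WT and TG. 9030624G23Rik, 296.4 kb from its region, is higher.

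Elsewhere among the far regions such RNA differences were not seen or could not be. Nxph1, whose listed position is 710.9 kb from a region on chromosome 6, stood at 389 and 438.5 CPM in WT and TG and at 390, 389 and 400 in the KO-labelled libraries. Cdh19 stood at 7.997, 9.10, 8.05, 9.10 and 5.25. Olfr1467, beside the region with the largest gap (432.7 kb, chr19:13384925-13385898), and H2afb2 had 0 UMIs in every library.

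In the chromosome 10 window the lower of the WT and TG levels ran from 0.752 to 1.60 CPM. A region 114.4 kb from Alx1 at chr10:102913396-102914395 held 157 cut sites in WT and 115 in TG. The nearest region listed in all 5 libraries, 20.3 kb away, stood at 4.26 CPM in WT and 5.03 in TG against 1.67, 1.83 and 1.49 in TG-aKO, TG-nKO and TG-tKO. Those values separate WT and TG from the others by more than 2-fold. It was the single one of the 7 flanking regions of this window that was over 1.5-fold lower than TG in each KO-labelled library. The flank of the Slc6a15 region, for example, stood at 4.36, 4.25, 4.03, 4.19 and 4.04 CPM. Alx1 RNA was at most 0.0268 CPM in any library.

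Around the regions in general, chromatin that every library listed had median ratios like those of all such chromatin. Shares past 1.5-fold stood above those of all, both for lower and for higher flanks. A neighbour missing from any library's list could not be a flank, so loss of neighbouring peaks cannot be read here. For 2275 of the regions of the set, a region listed in all 5 libraries lay within 50 kb, a median of 4.775 kb away. Over these 2184 flanking regions the median log2 ratio to TG was 0.08 in TG-aKO, 0.01 in TG-nKO and 0.03 in TG-tKO, and over all 100608 it was 0.08, 0.01 and 0.03. Flanks over 1.5-fold lower than TG numbered 24 in TG-aKO (1.10%, beside 0.518% of all), 36 in TG-nKO (1.65%, beside 1.31%) and 39 in TG-tKO (1.79%, beside 1.02%). Flanks over 1.5-fold higher numbered 96 (4.40%, beside 3.54%), 94 (4.30%, beside 3.85%) and 88 (4.03%, beside 3.74%). These 3 comparisons share the TG library. Where a KO peak came within 100 bp, 6, 4 and 4 of 74 flanks were over 1.5-fold higher than TG in TG-aKO, TG-nKO and TG-tKO, and the medians were 0.08, -0.03 and 0.10. One that was higher in all 3 lay beside the Nab1 region, at 2.49 CPM in WT and 2.33 in TG against 4.16, 4.25 and 4.29. The Nab1 region itself, 1 bp from this flank, held a further 1.41 CPM in WT and 1.12 in TG. Cut sites were counted in each library's own peaks. Where peaks abut, as here, a different level and a different placing of peak edges cannot be told apart.

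Distal regions with an astrocyte-like excess that were listed everywhere can be read in all libraries. Among regions listed in all 5, 5131 had at least 2 times the level of all nuclei in astrocyte-like nuclei of WT. Their median log2 ratio to TG was 0.01 in TG-aKO, -0.03 in TG-nKO and -0.10 in TG-tKO, each below the 0.08, 0.01 and 0.03 of all such regions. Oligodendrocyte-leading regions chosen in the same way had medians of 0.02, 0.01 and -0.12, and OPC-leading ones 0.01, 0.01 and -0.09. Microglia-leading ones, at 0.02, -0.05 and -0.08, were below all such regions in all 3 libraries as well. Inhibitory neuron-leading ones had 0.09, 0.02 and 0.02, and dentate granule-leading ones 0.14, 0.10 and 0.05. The granule-like nuclei were not the same mix in each library: 1 of their clusters held 1.91% of them in WT and 1.88% in TG but 22.6%, 26.4% and 32.5% in TG-aKO, TG-nKO and TG-tKO, and its part in these medians was not tested. The TG library enters all 3 ratios.

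RNA of the nearest genes was compared over 2067 genes, of which 1519 had at least 100 UMIs over the 5 libraries. A gene was counted at over 1.5-fold, with 5 CPM added. Between TG and WT 0 of the 1519 genes were higher and 0 lower, beside 0.0989% and 0.0156% of all 19208 genes. In TG-aKO against TG 40 were higher (2.63%, beside 1.48%) and 2 lower (0.132%, beside 0.156%), and in TG-nKO 46 were higher (3.03%, beside 1.7%) and 3 lower (0.1975%, beside 0.151%). In TG-tKO 7 were higher (0.461%, beside 0.234%) and 6 lower (0.395%, beside 0.219%). With median-of-ratios size factors in place of UMI totals the counts became 12 higher (0.790%, beside 0.401% of all genes) and 11 lower (0.724%, beside 0.432%) in TG-aKO. They became 22 (1.45%, beside 0.687%) and 20 (1.32%, beside 0.557%) in TG-nKO, and 7 (0.461%, beside 0.229%) and 6 (0.395%, beside 0.266%) in TG-tKO. The split between higher and lower calls in the first 2 libraries thus moved with the scaling, while the shares of higher calls stood above those of all genes under both scalings. With 1 CPM added in place of 5, 117 genes were higher in TG-aKO (7.70%, beside 6.36%), 112 in TG-nKO (7.37%, beside 6.38%) and 21 in TG-tKO (1.38%, beside 0.901%). Lower ones were then 16 (1.05%, beside 0.515%), 13 (0.856%, beside 0.437%) and 20 (1.32%, beside 0.864%). In excitatory neuron-like nuclei, leaving out dentate granule-like ones, 49, 53 and 17 of 1374 genes were higher (3.57%, 3.86% and 1.24%, beside 2.06%, 2.41% and 0.563% of all genes). There 4, 6 and 4 were lower (0.291%, 0.437% and 0.291%, beside 0.146%, 0.229% and 0.146%).

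By order alone, 162 of the 1519 genes (10.7%) were lower in each KO-labelled library than in WT and TG, beside 5.95% of all genes. Of genes nearest to regions listed in all 5 libraries, 6.80% were lower. With size factors the shares were 24.95% of the 1519 genes and 18.1% of all genes. Genes higher in each of the 3 were 393 (25.9%), beside 32.2% of all genes and 30.5% of those nearest to regions listed in all 5. Of the genes nearest to astrocyte-leading regions, 14 of 136 were lower in each KO-labelled library (10.3%), close to the share of the whole set.

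Named genes differed in some of the KO-labelled libraries or in all 3. Vrk2, a kinase gene, stood at 24.1 and 25.5 CPM in WT and TG and at 15.85, 16.3 and 15.1 in the KO-labelled libraries, so the 2 groups do not overlap. Kcnh5, a potassium channel gene, stood at 66.85 in WT, 90.8 in TG and 63.45, 56.0 and 64.2, and WT was close to the KO-labelled libraries. It was among the 10 leading genes of an excitatory neuron-like cluster of 108, 246, 203, 72 and 284 nuclei, whose part was not tested. Spock1, a proteoglycan gene, was at 114 in TG-nKO alone against 321 to 357 in the others. Lgr6, a receptor for R-spondins, stood at 2.70 in TG-aKO and 2.465 in TG-tKO but at 8.97 in TG-nKO, beside 6.81 and 7.305 in WT and TG. Mag, a myelin glycoprotein gene, stood at 5.95 in TG-tKO against 9.57 to 15.3 in the others. In that library oligodendrocyte-like nuclei numbered 228, against 295 to 336 elsewhere, and their part in the Mag level was not tested.

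Higher values included AC149090.1, a clone-named gene, at 280 and 229 CPM in WT and TG and 637, 613 and 433 in the KO-labelled libraries. Gapdh, a glycolytic enzyme gene, stood at 23.6 and 28.0 against 59.4 in TG-aKO and 44.9 in TG-nKO, and at 27.7 in TG-tKO. Sorcs3, a sorting receptor gene with 4 regions nearest to it, stood at 277 and 275 in WT and TG, 301.5 in TG-aKO, 519 in TG-nKO and 352 in TG-tKO. Pxdn, which encodes a matrix peroxidase, stood at 46.05 and 35.3 against 60.85, 77.8 and 69.9. Cpa6, a carboxypeptidase gene, stood at 8.65 and 9.50 against 16.9, 16.3 and 21.1. It was among the 10 leading genes of an excitatory neuron-like cluster of 113, 118, 177, 89 and 200 nuclei, whose part was not tested.

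Between TG and WT the largest differences stayed below 1.5-fold once 5 CPM were added to each level. Cd44, an adhesion receptor gene, stood at 5.64 in WT and 2.68 in TG, with 3.95 to 5.43 in the KO-labelled libraries. It was among the 10 leading genes of an excitatory neuron-like cluster. That cluster held 93, 72, 207, 89 and 262 nuclei in WT, TG, TG-aKO, TG-nKO and TG-tKO. Zic1, a transcription factor gene, stood at 1.75 and 4.25, and at 1.005 in TG-tKO. It was among the 10 leading genes of an inhibitory neuron-like cluster of 49, 155, 108, 60 and 99 nuclei in the same order. The part of these clusters in the Cd44 and Zic1 levels was not tested. Cyp51, an enzyme gene of cholesterol synthesis, stood at 29.1 and 42.15, and Tshz3 at 73.0 and 102.7.

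Near the strongest astrocyte-leading regions, RNA values in astrocyte-like nuclei were not ordered as the peak lists in most cases. No intervals were computed for these values, and many rest on few UMIs, so small differences can be counting error. Slc7a11 had 517.5 CPM in astrocyte-like nuclei of WT, 396 in TG, 305 in TG-aKO, 910 in TG-nKO and 877 in TG-tKO, from 55 to 186 UMIs a library. TG-nKO and TG-tKO were the highest, and neither listed a peak at the intron. Slc7a11 was also among the 10 leading genes of 1 of the 2 vascular and fibroblast-like clusters, of 8 to 11 nuclei a library, and of the larger unnamed cluster that raised all 8 astrocyte markers, which held 95 nuclei in TG-tKO and 18 to 25 elsewhere. The part of such cells in these levels was not tested. Fgfr3 stood at 187, 242, 227.5, 201 and 256.5, from 31 to 59 UMIs. Mgat5 stood at 438, 534, 294, 558 and 372, from 45 to 138 UMIs. Ddah1 stood at 340 and 325 in WT and TG and at 255, 171 and 290 in the KO-labelled libraries, from 107, 78, 46, 35 and 35 UMIs. WT and TG had the highest values there, but TG-tKO was close to TG. Npas3 stood at 5715, 5449, 4566, 4983 and 5494.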

How the data were processed

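Nuclear RNA and accessible DNA of mouse hippocampus were measured in 5 libraries, 1 per group. The values are counts deposited by the authors: UMIs per gene and transposase cut sites per listed peak in each nucleus. The tools were Cell Ranger ARC 2.0.0 and Seurat on mm10, per the submitters' processing notes; peaks come as a separate list for each library, and the caller's settings are not given in the sources used here. Annotation was GENCODE vM21 (GRCm38, the same build).

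Nuclei were required to show 500 genes or more and no more than 5% of UMIs from mitochondrial genes. Doublets were removed by Scrublet score rank at 0.8% per 1000 nuclei, which left 3917 to 7032 nuclei a library. Clustering used scanpy 1.11.5 with 2000 variable genes, 40 components, 15 neighbours and Leiden resolution 1, and names came from marker genes, with unclear clusters left unnamed. A close second list gave the name where the 10 leading genes held at least 3 of its markers and none of the first list's. That named 1 of the 2 microglia-like clusters (226 nuclei), whose first list was that of T cells and macrophages. Names such as astrocyte-like are rebuilt here. Levels are CPM, that is cut sites (over those in listed peaks) or UMIs, scaled to each library's total. Intervals are exact Poisson or Clopper-Pearson at 95%, for counting error only. The merging and the class rule were tested on simulated data. For the class rule these held a single excess, well above the limit of 2 times, at cut-site totals like those of astrocyte-like nuclei. They do not show how the rule performs near its limit or in other classes.

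The nearest gene was that whose listed position is nearest to the region's centre. Named regions are the 10 strongest, 2 per class, up to 3 per dense window, near Mgll, and at each edge of the rule. Named genes are their nearest genes and the 3 highest and 3 lowest RNA ratios per comparison. The 20 regions with most astrocyte-like cut sites, those farthest from KO peaks, the genes with most regions nearest to them, and host genes were added after their values were seen. The members, lists and rules were chosen with earlier results of these data known. Sequences of the strongest regions, which the rule had asked for, are not shown and motifs were searched only in RefSeq promoter windows, since no genome sequence was used here.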

Additional observations from a re-analysis of the deposited data

How the results depend on the processing

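No paired analysis was possible because a group never holds more than 1 library. Of 90 alternative values, 44 stayed within the limits set (1.5 times for counts, 0.05 for medians of log2 ratios, the counting interval for shares). The number of regions ran from 1792 to 2217 over the other merging, distance and level rules, and from 3128 to 4740 with a KO-labelled library left out. Dense windows numbered 4 at 5 Mb, 17 at 1 Mb and 0 at 10 Mb. The astrocyte-like share of 1.88% in WT and 1.501% in TG became 3.75% and 4.204% by marker score, 1.68% and 1.38% without doublet removal, and 2.64% and 2.35% with unnamed clusters that raise all 8 astrocyte markers added, an alternative chosen after seeing the data, as were those that leave out a library; with a KO-labelled library left out of the rule it ran from 1.33% to 2.06% in WT and from 1.04% to 1.58% in TG. Regions past 1.5-fold between TG and WT numbered 58, and 13 with a pseudocount of 1 CPM, for which the share over all distal regions was not computed. Nearest genes over 1.5-fold higher than TG numbered 40, 46 and 7 in TG-aKO, TG-nKO and TG-tKO. With a pseudocount of 1 CPM they were 117, 112 and 21 (7.70%, 7.37% and 1.38%, beside 6.36%, 6.38% and 0.901% of all genes). Those lower were then 16, 13 and 20 (1.05%, 0.856% and 1.32%, beside 0.515%, 0.437% and 0.864%), in place of 2, 3 and 6. With size factors TG-aKO gave 12 higher and 11 lower and TG-nKO 22 and 20, and the share lower in each KO-labelled library became 24.95%. With genes within 50 kb only, TG-aKO gave 26 higher and TG-nKO 1 lower. That is a smaller set of genes whose size is not given here, so these counts cannot be read as shares beside those of all genes. In excitatory neuron-like nuclei other than dentate granule-like ones, 49, 53 and 17 were higher and 4, 6 and 4 lower. Shares of all genes with size factors and in these nuclei stand beside the counts in the Results. The GC content and motif search over all regions, at 300 or 200 bases, was not run, because no genome sequence was used here. Depth limits what single regions can show: the median region rests on 146 cut sites in WT.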
